A study of Mus musculus with 6 samples.

Results

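The genes described here are those of the proteasome, the particle that degrades ubiquitin-tagged proteins, in neurospheres grown from mouse hippocampus. Members were chosen by name, as every gene whose symbol matches Psma to Psmg followed by a digit and that has a probe set with a single gene symbol, which gave 50 of the 19937 named genes and 56 probe sets. Where a gene had more than 1 probe set, as 5 members did, the one that read brightest on average over the 6 arrays stands for it, and that average is the only measured value used in the choice. Psmc3ip and Psme3ip1 match the pattern by their names but encode partner proteins and not subunits. They are given apart, which leaves 48 genes, namely 19 of the core (Psma and Psmb), 20 of the regulatory particle (Psmc and Psmd), 4 activators (Psme), 4 assembly chaperones (Psmg) and the inhibitor Psmf1.

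RNA was measured on whole-transcript arrays in primary neurospheres, which are balls of cells that grow in suspension from neural precursors. The sample titles call these spheres big neurospheres. They came from the hippocampus of male C57BL/6J mice of 8 to 12 weeks and grew in medium with EGF and bFGF until day 14. Of the samples, 3 were grown with 10 µM norepinephrine, a monoamine transmitter, and 3 with 15 mM KCl, which depolarises neurons. No genetic change is named in the labels, and no untreated group was analysed here, so a difference may lie with either treatment. The labels call the samples biological replicates without giving the animal or culture behind each, so a test measures only the spread between these samples. All values are log2 expression values, and every difference is norepinephrine minus KCl on that scale. Precision is limited by the small number of arrays.

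The proteasome is a barrel closed by a cap. In the barrel, or core particle, rings of alpha subunits (Psma) guard the entrance and rings of beta subunits (Psmb) carry the protein-cutting sites. The cap, or regulatory particle, has a ring of ATPases (Psmc) that unfolds substrates and non-ATPase subunits (Psmd) that bind ubiquitin chains and remove them. Interferon exchanges the cutting subunits Psmb6, Psmb7 and Psmb5 for Psmb9, Psmb10 and Psmb8, and it raises the activator subunits Psme1 and Psme2. Neural stem cells depend on the proteasome for the timed removal of cell cycle and fate proteins.

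The promoters of 4 members are shown as examples of the letters searched in genes described below: the cutting subunits Psmb5 and Psmb6, and the activators Psme1 and Psme4. The sequences are RefSeq windows of the GRCm38.p6 build, from 250 bases before to 50 after the start of the gene, written on the strand of the gene. In the first 3, capitals mark the letters TGACNNNGC on either strand, a core of the antioxidant response element, the kind of element that the transcription factor Nfe2l1 uses on proteasome genes. In the last, capitals mark GAAA, any 2 bases and GAAA again on either strand, a core of the interferon-stimulated response element, which was searched after the values of these genes were seen.
Psmb5 (chr14:54617946-54618245, minus strand): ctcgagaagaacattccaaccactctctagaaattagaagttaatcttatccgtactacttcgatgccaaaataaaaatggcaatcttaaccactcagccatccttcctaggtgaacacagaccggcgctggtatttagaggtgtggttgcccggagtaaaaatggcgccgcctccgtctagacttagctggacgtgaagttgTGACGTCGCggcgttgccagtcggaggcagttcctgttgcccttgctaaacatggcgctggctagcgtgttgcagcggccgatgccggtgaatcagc
Psmb6 (chr11:70525107-70525406, plus strand): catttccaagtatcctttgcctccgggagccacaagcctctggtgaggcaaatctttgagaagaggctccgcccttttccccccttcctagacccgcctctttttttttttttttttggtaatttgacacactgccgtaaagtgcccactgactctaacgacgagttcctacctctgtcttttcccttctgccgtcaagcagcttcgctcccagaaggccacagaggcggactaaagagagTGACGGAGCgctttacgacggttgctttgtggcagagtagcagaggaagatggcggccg
Psme4 (chr11:30771525-30771824, plus strand): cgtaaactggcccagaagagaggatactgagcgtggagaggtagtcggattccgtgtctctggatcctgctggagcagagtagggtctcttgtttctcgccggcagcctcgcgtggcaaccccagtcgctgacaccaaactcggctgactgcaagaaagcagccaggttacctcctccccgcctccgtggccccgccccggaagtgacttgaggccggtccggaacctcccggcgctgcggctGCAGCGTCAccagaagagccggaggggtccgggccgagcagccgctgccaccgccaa
Psme1 (chr14:55578244-55578543, plus strand): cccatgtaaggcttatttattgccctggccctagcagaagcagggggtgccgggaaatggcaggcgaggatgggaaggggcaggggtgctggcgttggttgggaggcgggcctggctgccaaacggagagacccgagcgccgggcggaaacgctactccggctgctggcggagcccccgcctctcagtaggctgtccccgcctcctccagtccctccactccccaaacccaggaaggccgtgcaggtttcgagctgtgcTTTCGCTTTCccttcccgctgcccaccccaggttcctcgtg

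Of the 48 genes, 40 had such a window, in 43 windows. The letters TGACNNNGC stood in 6 of the 43 windows, those of Psmb5, Psmb6, Psmc6, Psmd9, Psmd12 and Psme4, against 12.4% of all 32851 windows of the same length. The looser TGANNNNGC, which holds every TGACNNNGC match, stood in 25 of the 43 windows, against 41.3% of all windows. The interferon core stood in 5 windows, those of Psmb3, Psmd4, Psmd9, Psme1 and Psmg4, against 3.44% of all windows.

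Before the results, 1 array needs naming. On KCl replicate 1 the named probe sets had a standard deviation of 1.38 log2 units, against 1.62 to 1.78 on the other 5 arrays, so bright genes read low there and dim genes high. The proteasome genes are bright. Of the 48 genes, 30 lay in the brightest 10% of all named genes. On KCl replicate 1 those bright genes read a median of 0.52 log2 units below their own means, a deviation of -0.52. KCl replicate 1 gave the lowest of the 6 readings in 35 of the 48 genes, or 72.9%, and in 69.2% of the brightest 10%. The genes described below are therefore given with that array and without it. Of the precursor markers expected in neurospheres, the fatty acid binding protein Fabp7 read 12.75 to 12.99 with norepinephrine and 12.98 to 13.15 with KCl, and the transcription factor Sox2 read 10.19 to 10.50 with norepinephrine and 9.43 to 10.33 with KCl. Both had a reading on every array, but the deposited values do not tell which probe sets were above background, so the label could not be tested with markers. Both are also bright, and the precursor markers were not all level between treatments. Of the 11 measured, 6 were higher with norepinephrine, against 38.0% of all named probe sets. Their differences ran from -0.38 (Hes1) to 0.60 (Prom1), and from -0.58 (Nes) to 0.66 (Prom1) without KCl replicate 1.

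On all 6 arrays, 42 of the 48 proteasome genes were higher with norepinephrine, against 38.0% of all 21640 named probe sets. The median difference of the 48 genes was 0.39, with a range of -0.33 to 1.17, and that of all named genes was -0.07. In the brightest 10% of all genes the median was 0.17 and 73.8% were higher with norepinephrine, a share between that of all genes and that of the proteasome genes. Of the 30 proteasome genes within that 10%, 28 were higher, with a median of 0.42. After a further quantile normalization, 36 of the 48 stood above 0, against 43.1% of all named genes and 51.1% of the brightest 10%. The median of the 48 was then 0.28, while the brightest 10% had a median of 0.0084. Without KCl replicate 1, 36 of the 48 were higher, against 52.2% of all named probe sets, and the median was 0.08, against -0.01 in the brightest 10%. Of the 30 proteasome genes within the brightest 10%, 21 were then higher, against 47.8% of that 10%, with a median of 0.11. In samples of whole spheres, fewer cells of a type and less RNA per cell cannot be told apart.

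No single gene passed the threshold. With limma's p-values adjusted by Benjamini-Hochberg over all named probe sets, 0 of 48 had an adjusted p under 0.05, as had 0% of all probe sets, and the lowest adjusted p among the members was 0.939 (n = 3 per group). At an unadjusted p under 0.05 there were 6 of 48, against 3.43% of all named probe sets. All 6 were higher with norepinephrine, against 2.20% of all named probe sets and 4.91% of the brightest 10%, and 0 were higher with KCl, against 1.24% of all. They were the core subunits Psmb1, Psmb3, Psmb4 and Psmb10 and the activator subunits Psme1 and Psme2. Of these, Psmb10 and Psme2 lie outside the brightest 10%. Leaving out other arrays moved this count, and the share of all probe sets moved with it. The count was 1 without norepinephrine replicate 1, against 1.46% of all named probe sets, and 3 without replicate 2 or replicate 3 of norepinephrine, against 2.07% and 1.65%. Without KCl replicate 2 it was 26, all higher with norepinephrine, against 8.64% of all named probe sets in that direction and 26.2% of the brightest 10%. Without KCl replicate 1, 0 of 48 passed, against 0.0185% of all probe sets, with 0.587 as the lowest adjusted p. There 5 genes had an unadjusted p under 0.05, against 4.63% of all probe sets, and 4 of these were higher with norepinephrine, against 2.38% of all, namely Psmb1, Psmb10, Psme1 and Psme2. The activator Psme4 was the 1 such gene higher with KCl, against 2.25% of all.

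**Figure D1:**
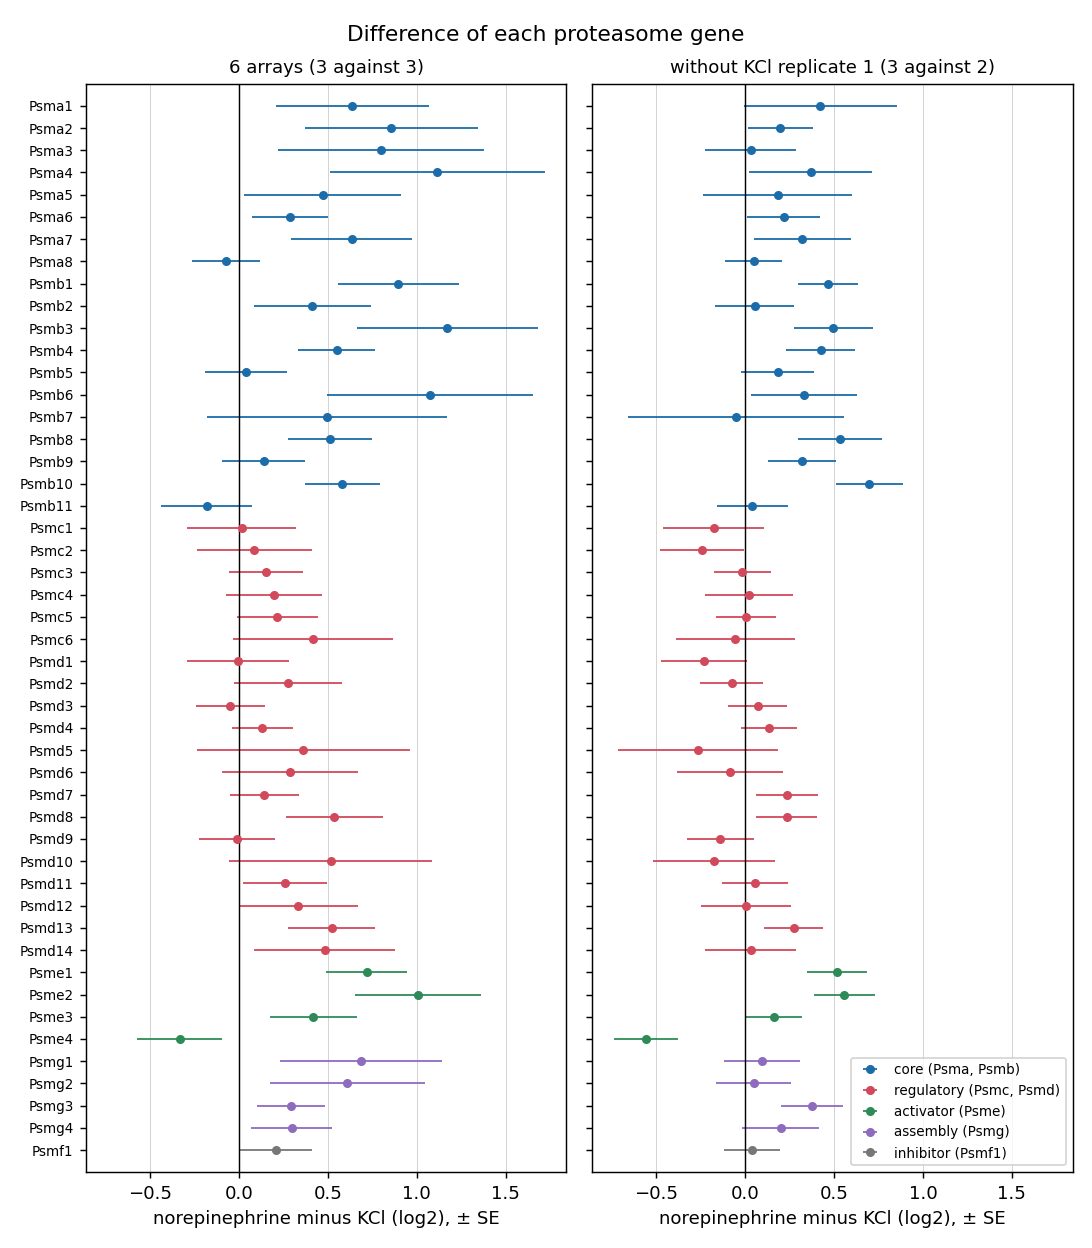
Difference of each of the 48 proteasome genes in log2 units, norepinephrine minus KCl, with moderated standard errors, on 6 arrays (left) and without KCl replicate 1 (right). Colours give the class. On 5 arrays the core genes lie mostly right of 0, with a median of 0.32, the regulatory genes lie around 0, with a median of -0.01, and Psme4 stands alone on the far left at -0.56.

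The classes differed in what was left without KCl replicate 1. Of the 19 core genes, 17 were higher with norepinephrine on 6 arrays, with a median of 0.55, and 18 were higher without KCl replicate 1, with a median of 0.32. Of the 20 regulatory genes, 17 were higher on 6 arrays, with a median of 0.24, and 10 were higher without that array, with a median of -0.01. Psmd5, Psmd9 and Psmd10, counted here by their names, are assembly chaperones, and without them, a choice made after the values were seen, 15 of 17 were higher, with a median of 0.22, or 10 of 17 without KCl replicate 1, with a median of 0.0067. Restricted to members in the brightest 10%, the medians without KCl replicate 1 were 0.27 for 14 core genes and -0.02 for 13 regulatory genes. After a further quantile normalization of all 6 arrays the medians were 0.43 for the core and 0.08 for the regulatory particle. The difference between the classes was not tested, since genes are not replicates.

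The core value without KCl replicate 1 came mainly from KCl replicate 3. Set against each KCl array in turn, the norepinephrine mean of the 14 constitutive core genes was higher by a median of 1.42 than KCl replicate 1, lower by 0.14 than KCl replicate 2 and higher by 0.67 than KCl replicate 3. These are the core genes without Psmb8, Psmb9, Psmb10 and the tissue-restricted Psma8 and Psmb11. All 14 were higher with norepinephrine than on KCl replicate 3, and 4 of 14 were higher than on KCl replicate 2. For the 20 regulatory genes the same medians were 0.70, -0.24 and 0.28. The brightest 10% of all genes gave 0.60, -0.13 and 0.10. Without KCl replicate 2 the core median was 1.00 and the regulatory median 0.46. The constitutive core therefore read near norepinephrine on KCl replicate 2 and low on the other KCl arrays, and its 3 KCl samples did not read alike.

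**Figure D2:**
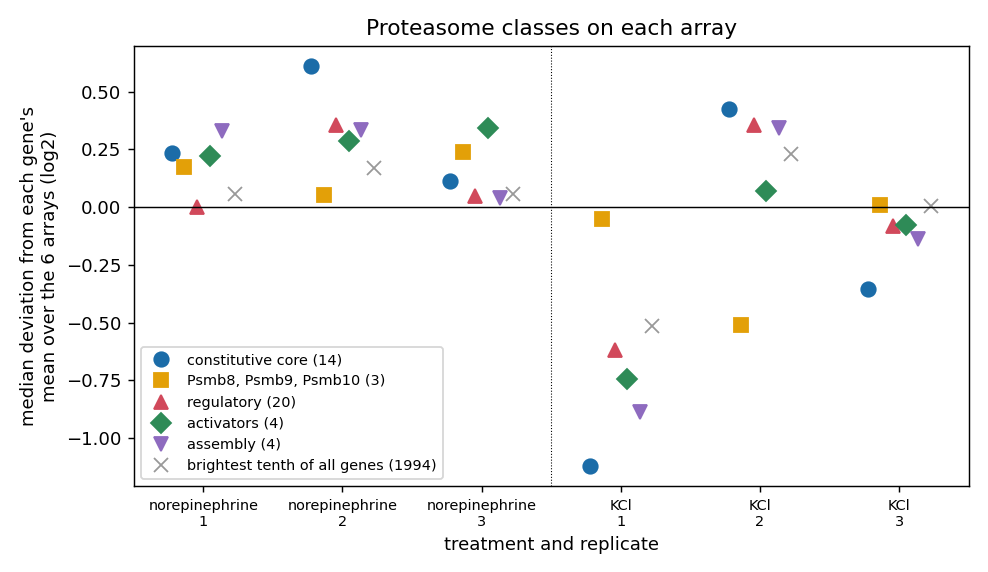
Median deviation of each class from each gene's own mean over the 6 arrays, in log2 units, by treatment and replicate. Symbols give the class, with the number of genes in brackets, and the crosses are the brightest 10% of all named genes. The constitutive core reads -1.12 on KCl replicate 1, 0.42 on KCl replicate 2 and -0.36 on KCl replicate 3, while Psmb8, Psmb9 and Psmb10 read lowest on KCl replicate 2, at -0.51. Psmb8, Psmb9 and Psmb10 are dimmer than the constitutive core, and all named genes also read lowest on KCl replicate 2, at -0.12.

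The replicates numbered 2 read high in both treatments. Norepinephrine replicate 2 gave the highest norepinephrine reading in 32 of the 48 genes, and KCl replicate 2 gave the highest KCl reading in 37. Among the 6 ATPase genes both were highest in 6 of 6. In the brightest 10% of all genes the same counts were 1082 and 1332 of 1994. What equal replicate numbers share, if anything, is not given in the labels.

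Among the alpha subunits of the outer core ring, the 7 constitutive members Psma1 to Psma7 had differences from 0.29 (Psma6) to 1.11 (Psma4). Of them, 0 had an unadjusted p under 0.05, against 3.43% of all named probe sets. Psma4 (probe set 10585474) read 10.30, 11.10 and 10.60 with norepinephrine and 8.06, 10.90 and 9.70 with KCl, a difference of 1.11 ± 0.60 (SE, n = 3 per group). KCl replicate 1 was the lowest reading by more than 1.5 log2 units and KCl replicate 2 lay among the norepinephrine readings, so the groups overlapped. Its difference was 0.37 ± 0.35 without KCl replicate 1. Without that array, all 8 alpha genes were higher with norepinephrine, by 0.03 (Psma3) to 0.42 (Psma1). Psma8, the alpha subunit of testis that stands in for Psma7 there, read 5.42, 5.39 and 5.39 with norepinephrine and 5.71, 5.27 and 5.43 with KCl. Its groups overlapped, and the difference of -0.07 ± 0.19 turned to 0.05 without KCl replicate 1. Psma8 was dim, at brightness percentile 11.7. In the 2nd dimmest 10% of all genes the median moved likewise, from -0.18 to 0.0073.

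The beta ring held the largest difference of all 48 genes. Psmb3, a structural beta subunit, read 10.99, 10.67 and 10.38 with norepinephrine and 8.16, 10.39 and 9.98 with KCl (probe set 10434643). The lowest norepinephrine reading lay just under KCl replicate 2. The difference was 1.17 ± 0.51, a 2.25-fold difference, and 0.50 ± 0.22 without KCl replicate 1. Its other probe set gave 1.20, and 0.60 without that array.

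Psmb1, which sits beside the cutting subunits in the beta ring, spread little over the norepinephrine arrays. It read 10.33, 10.23 and 10.31 with norepinephrine and 8.53, 9.95 and 9.69 with KCl (probe set 10448048), so all norepinephrine readings were above all KCl readings. The difference was 0.90 ± 0.34, and 0.47 ± 0.17 without KCl replicate 1. Psmb4, another structural subunit, read 10.52, 10.42 and 10.18 with norepinephrine and 9.57, 10.16 and 9.74 with KCl (probe set 10500034). Its groups were also apart, by a narrow gap to KCl replicate 2. The difference was 0.55 ± 0.22, and 0.43 ± 0.19 without that array.

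The 3 constitutive cutting subunits differed mostly in how they read on KCl replicate 1. Psmb5, which cuts after hydrophobic residues, read 11.00, 11.40 and 10.94 with norepinephrine and 11.36, 11.12 and 10.74 with KCl (probe set 10419810), a difference of 0.04 ± 0.23, or 0.18 ± 0.21 without KCl replicate 1. That array was here the highest KCl reading, unlike in most members. Psmb6, which cuts after acidic residues, read 11.06, 11.56 and 10.98 with norepinephrine and 8.64, 11.37 and 10.36 with KCl (probe set 10377851). Its difference was 1.07 ± 0.58, with overlapping groups, and 0.33 ± 0.30 without KCl replicate 1, so that on 5 arrays Psmb5 and Psmb6 lay within each other's error.

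Psmb7, which cuts after basic residues, varied most of the 48 genes over the norepinephrine arrays, with a standard deviation of 0.93. Over the KCl arrays its standard deviation was 1.38, against 1.42 for Psma4. It read 10.32, 12.10 and 10.72 with norepinephrine and 9.46, 12.10 and 10.10 with KCl (probe set 10482229). Both replicates numbered 2 stood more than 1 log2 unit above the other arrays of their treatment. The difference was 0.50 ± 0.67, and -0.05 ± 0.61 without KCl replicate 1, which is less than the spread between replicates.

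**Figure D3:**
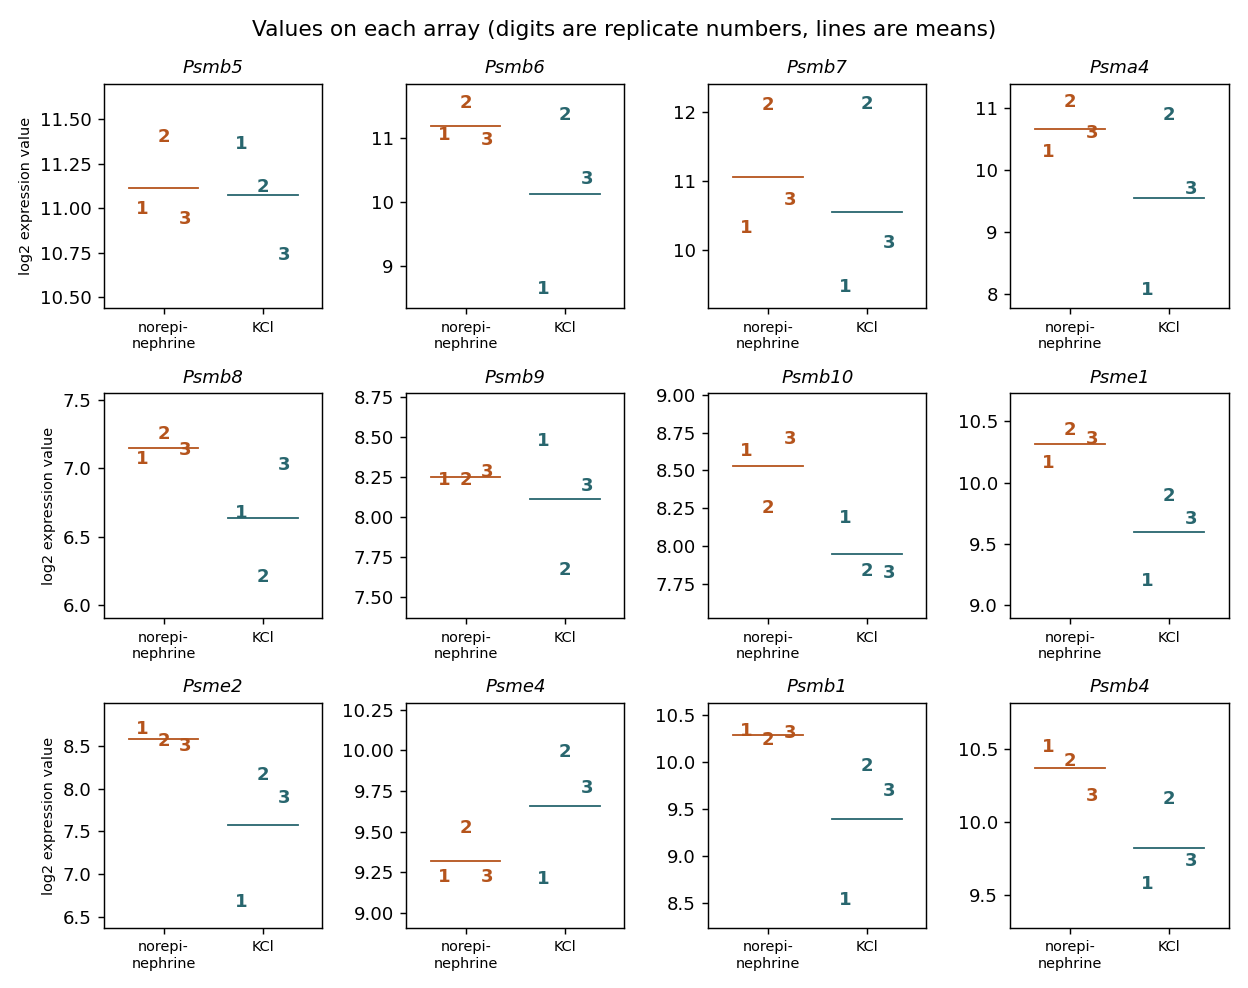
Log2 expression values of 12 proteasome genes on each array, with norepinephrine left and KCl right in each panel. Digits are replicate numbers, lines are means of 3, and each panel has its own vertical scale. The norepinephrine readings lie above all KCl readings for Psmb8, Psmb10, Psme1, Psme2, Psmb1 and Psmb4, and the readings of both replicates numbered 2 stand apart for Psmb7.

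The interferon-inducible beta subunits were all higher with norepinephrine on average, and their pattern over the KCl arrays was not that of the constitutive core. They were also dimmer, at brightness percentiles 42.4 (Psmb8), 74.3 (Psmb9) and 75.4 (Psmb10), against 93.9 or more in the constitutive core. All named genes had median deviations of 0.21, -0.12 and 0.03 on KCl replicates 1, 2 and 3. Whether the pattern goes with brightness was not tested. Psmb10, the inducible counterpart of Psmb7, read 8.63, 8.25 and 8.71 with norepinephrine and 8.19, 7.84 and 7.82 with KCl (probe set 10581378). The groups did not overlap, and the difference was 0.58 ± 0.21, or 0.70 ± 0.19 without KCl replicate 1. Psmb8, the counterpart of Psmb5, read 7.07, 7.25 and 7.13 with norepinephrine and 6.67, 6.21 and 7.03 with KCl (probe set 10444258). The groups lay apart by a small gap to KCl replicate 3, and the difference was 0.51 ± 0.24, or 0.53 ± 0.24 without KCl replicate 1 and 0.30 without KCl replicate 2. Psmb9, the counterpart of Psmb6, read 8.23, 8.23 and 8.28 with norepinephrine and 8.47, 7.67 and 8.19 with KCl (probe set 10450145). KCl replicate 1 was above the norepinephrine readings and the other KCl arrays below them, with a difference of 0.14 ± 0.23, or 0.32 ± 0.19 without that array. The difference of Psmb9 turned to -0.08 without KCl replicate 2, which left 2 of the 3 inducible genes higher with norepinephrine. Psmb11, the beta subunit of thymus, read 7.06, 6.75 and 7.01 with norepinephrine and 7.57, 6.65 and 7.15 with KCl. Its groups overlapped, and the difference of -0.18 ± 0.26 turned to 0.04 without KCl replicate 1. Psmb11 lay at brightness percentile 46.4.

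The activators read in both directions. Psme1 and Psme2 encode the alpha and beta subunits of the interferon-inducible activator, a ring that opens the core without ATP. Psme1 read 10.16, 10.43 and 10.35 with norepinephrine and 9.19, 9.89 and 9.71 with KCl (probe set 10415282). Its groups did not overlap, and the gap was present against each KCl array. The difference was 0.72 ± 0.23, a 1.65-fold difference, and 0.52 ± 0.17 without KCl replicate 1. Psme2 read 8.70, 8.55 and 8.50 with norepinephrine and 6.67, 8.16 and 7.89 with KCl (probe set 10420030), again with groups apart. The difference was 1.01 ± 0.36, and 0.56 ± 0.17 without KCl replicate 1, so KCl replicate 1 moved it by over 1.5 times. The promoter window of Psme1 is the one shown with the interferon core, from 9 to 18 bases after the start base. The inducible Psmb8, Psmb9 and Psme2 also had windows, and these did not hold that core. The other genes with it, Psmb3, Psmd4, Psmd9 and Psmg4, are not among the inducible members named above.

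Psme3, the subunit of the nuclear activator, read 10.51, 10.37 and 10.56 with norepinephrine and 9.55, 10.33 and 10.31 with KCl. The groups were narrowly apart, and without KCl replicate 1 the difference of 0.42 ± 0.25 was 0.16 ± 0.16. Psme4, the large activator of the nucleus that acts in testis and in DNA repair, read 9.22, 9.52 and 9.22 with norepinephrine and 9.21, 9.99 and 9.77 with KCl (probe set 10374934). Here KCl replicate 1 lay level with norepinephrine and the other KCl arrays above it. The difference was -0.33 ± 0.24 on 6 arrays and -0.56 ± 0.18 without KCl replicate 1. Over the 4 activators the median of 0.57, and of 0.34 without KCl replicate 1, therefore joins genes of opposite sign.

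In the regulatory particle, 0 of 20 genes had an unadjusted p under 0.05, against 3.43% of all named probe sets and 5.57% of the brightest 10%. Without KCl replicate 1 the count was again 0, against 4.63% and 7.37%. Without KCl replicate 2 it was 8, against 16.3% of all named probe sets and 28% of the brightest 10%. The ATPases Psmc1 to Psmc6, the ring that unfolds substrates, had differences from 0.02 (Psmc1) to 0.42 (Psmc6), with a median of 0.17, and of -0.24 to 0.02 without KCl replicate 1. Psmc6 read 9.87, 10.12 and 9.39 with norepinephrine and 8.43, 10.43 and 9.27 with KCl, a difference of 0.42 ± 0.45 that was -0.05 ± 0.33 without that array. Psmc1 read 10.25, 10.85 and 9.89 with norepinephrine and 9.93, 10.78 and 10.23 with KCl, a difference of 0.02 ± 0.31 that turned to -0.18 ± 0.29 without that array. Both genes overlapped between treatments and read highest in each treatment on replicate 2. Set against the KCl arrays singly, all 6 ATPase genes were higher with norepinephrine than on KCl replicates 1 and 3, and 0 of 6 were higher than on KCl replicate 2.

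Of the 14 non-ATPase genes, 11 were higher with norepinephrine on 6 arrays, with a median of 0.28, and 8 were higher without KCl replicate 1, with a median of 0.02. Psmd8, a subunit of the lid, read 10.41, 10.13 and 10.35 with norepinephrine and 9.16, 10.12 and 10.00 with KCl. The lowest norepinephrine reading lay barely above KCl replicate 2, and the difference of 0.54 ± 0.27 was 0.23 ± 0.17 without KCl replicate 1. Psmd13, a lid subunit, stood at 0.52 and at 0.27 without that array, also with groups apart. Psmd14, the lid enzyme that cuts ubiquitin chains off substrates, stood at 0.48 and 0.03. Psmd4, a ubiquitin receptor, had the narrowest range of all 48 genes, 0.22 log2 units over the 6 arrays, and a difference of 0.13 ± 0.17, also 0.13 without KCl replicate 1. Psmd3, a lid subunit, read 8.57, 8.41 and 8.31 with norepinephrine and 8.72, 8.32 and 8.39 with KCl, a difference of -0.05 ± 0.20 with overlapping groups that turned to 0.07 without KCl replicate 1.

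The base chaperones Psmd5, Psmd9 and Psmd10, which help assemble the ATPase ring and are absent from the finished particle, stood at 0.36, -0.01 and 0.52. With KCl replicate 1 left out they stood at -0.26, -0.14 and -0.18. The range over the 6 arrays was 2.72 log2 units for Psmd5 and 2.70 for Psmd10, and a median of 1.16 over the 48 genes. The wide range came mostly from low readings on KCl replicate 1, at 6.00 for Psmd5 and 7.36 for Psmd10, and high ones on KCl replicate 2, at 8.72 and 10.06.

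The core assembly chaperones Psmg1 to Psmg4, which build the alpha ring, all read higher with norepinephrine on average, with a median of 0.45, and of 0.15 without KCl replicate 1. Psmg1 read 8.87, 9.04 and 8.76 with norepinephrine and 7.02, 9.11 and 8.48 with KCl, a difference of 0.69 ± 0.46 with overlapping groups that was 0.10 ± 0.21 without that array. Psmg3 read 7.86, 7.61 and 7.52 with norepinephrine and 7.53, 7.27 and 7.31 with KCl. Of its readings, that of norepinephrine replicate 3 lay just under KCl replicate 1, and the difference was 0.29 ± 0.19, or 0.38 ± 0.17 without KCl replicate 1. Psmf1, an inhibitor of the core in the test tube, read 7.61, 7.61 and 7.56 with norepinephrine and 7.05, 7.59 and 7.53 with KCl, a difference of 0.21 ± 0.20 that was 0.04 ± 0.16 without that array. The partner proteins that share the pattern of names, Psmc3ip of meiotic recombination and Psme3ip1, stood at 0.69 ± 0.31 and 0.07 ± 0.19, and at 0.33 and 0.05 without that array.

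In all, all norepinephrine readings lay above all KCl readings in 10 of the 48 genes, against 4.36% of all named probe sets and 9.53% of the brightest 10%, and the reverse held in 0 of 48, against 4.77% and 3.16%. These were Psmb1, Psmb4, Psmb8, Psmb10, Psmd4, Psmd8, Psmd13, Psme1, Psme2 and Psme3. The count was 36 of 48 in either direction without KCl replicate 2, against 42.2% of all named probe sets and 40.9% of the brightest 10%, and 34 of these lay toward norepinephrine, against 13.7% and 35.1%. Without KCl replicate 1, 13 genes lay apart toward norepinephrine, against 8.13% of all named probe sets and 11% of the brightest 10%, and 1, Psme4, toward KCl, against 8.08% and 11.6%.

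**Figure D4:**
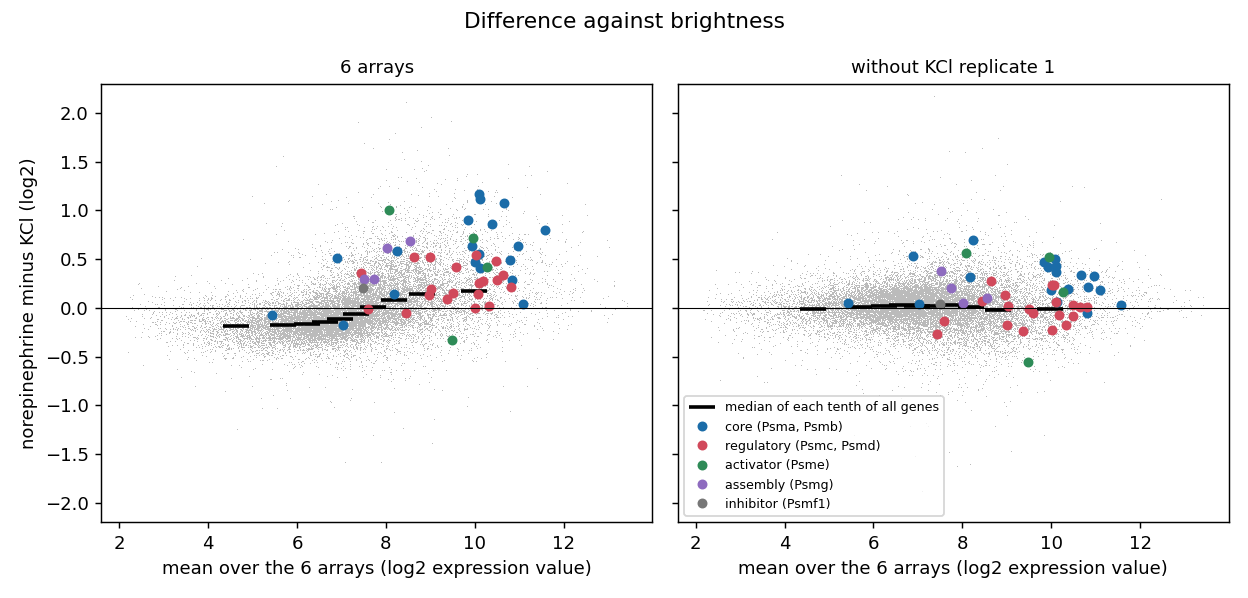
Difference in log2 units, norepinephrine minus KCl, against the mean log2 expression value over the 6 arrays, for all named genes (grey) and the proteasome genes (coloured by class), with black bars at the median of each 10% of all genes by brightness, on 6 arrays (left) and without KCl replicate 1 (right). On 6 arrays the bars climb from -0.19 in the dimmest 10% to 0.17 in the brightest, and without KCl replicate 1 they lie between -0.02 and 0.03, with most core genes above them.

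Other genes of the pathway were read from a list of 30, of which 21 were measured under a single symbol. The list holds enzymes and shuttles that deliver substrates, factors that bind the particle and regulators of its genes. Of the 21, 19 read higher on the norepinephrine arrays, against 38.0% of all named probe sets and 73.8% of the brightest 10%. Their median was 0.19, near the 0.17 of the brightest 10%. At an unadjusted p under 0.05 there were 0, against 3.43% of all named probe sets. When KCl replicate 1 was left out, 11 of 21 were higher, against 52.2% of all named probe sets, with a median of 0.03. Again 0 had an unadjusted p under 0.05, against 4.63% of all named probe sets. Pomp, the maturation factor of the core, read 11.88, 12.13 and 11.71 with norepinephrine and 11.73, 12.15 and 11.42 with KCl, a difference of 0.14 ± 0.24, or 0.12 without KCl replicate 1. Nfe2l1 read 9.83, 9.57 and 9.75 with norepinephrine and 9.28, 9.46 and 9.91 with KCl, a difference of 0.17 ± 0.22, or 0.03 without KCl replicate 1. The groups overlapped for both genes.

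Since interferon raises Psmb8, Psmb9, Psmb10, Psme1 and Psme2, genes of antigen presentation and interferon response were set beside them. Of 13 measured, 11 read higher on the norepinephrine arrays, against 38.0% of all named probe sets, with a median of 0.16. Without KCl replicate 1 it was 10 of the 13, against 52.2%, with a median of 0.13. Of these 13 genes, 2 had an unadjusted p under 0.05 on 6 arrays, against 3.43% of all named probe sets. They were the chemokine Cxcl10 at 1.31 ± 0.37 and the interferon-induced Ifit3 at 1.07 ± 0.33, and Ifit1 stood at 0.48 ± 0.22. Cxcl10, Ifit3 and Ifit1 are named for having the smallest p of the list. Irf1 and Nlrc5 stood the other way, at -0.28 ± 0.24 and -0.24 ± 0.31, and Irf7 and Stat2 stood at 0.01 and 0.02. Without KCl replicate 1 Cxcl10, Ifit3 and Ifit1 stood at 1.06, 0.92 and 0.67, and Irf1 and Nlrc5 at -0.07 and 0.03. Whether an interferon response differed between the treatments was not tested. Norepinephrine replicate 3 was the highest array for Cxcl10 and Ifit3, and without it they stood at 0.89 and 0.69. Immune cells carry the inducible subunits too. Of the 13 microglia and macrophage markers, 2 were higher with norepinephrine, against 38.0% of all named probe sets. These markers were dim, with a median at the 24.7th percentile of brightness. In the 3rd dimmest 10% of all genes, 13.1% were higher with norepinephrine. The mean level of the markers was 6.38, 6.19 and 6.38 on the norepinephrine arrays and 6.93, 6.19 and 6.43 on the KCl arrays. Without KCl replicate 1 the median of these markers was 0.02, with 8 of 13 higher with norepinephrine, against 52.2% of all named probe sets. Their part in the result was not tested.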

How the data were processed

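The authors deposited log2 expression values per probe set, 1 column per array, made with Partek and RMA per the submitters' processing notes, which give no version or setting here. Of 34760 probe sets, 21640 had 1 gene symbol in the platform table and entered the test, and 1321 had several. No scanner files were used, so no filter on detection was possible.

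Norepinephrine was compared with KCl with lmFit and eBayes of limma 3.58.1 (R 4.3.3), two-sided and without covariates, on all named probe sets, with Benjamini-Hochberg adjustment. The script was tested on simulated data. Medians and counts of a class are descriptions. Values on every array are given for Psmb5 to Psmb10, the members with the highest and lowest difference in each class, Psmf1, Pomp, Nfe2l1 and members at an unadjusted p under 0.05, and differences (ranges for Fabp7 and Sox2) for others chosen for their role, some after their values were seen. Psme3ip1 was set apart after the annotation was seen. Promoter letters were searched on both strands. Alternatives were further quantile normalization, centring of arrays, a filter at the 30th percentile, trend and robust moderation, weights for arrays, a block on the replicate number, the mean of a gene's probe sets and leaving out each array. The members and lists were chosen with earlier results of these data known.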

Additional observations from a re-analysis of the deposited data

How the results depend on the processing

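No proteasome gene had an adjusted p under 0.05 under a further quantile normalization, centring, the filter at the 30th percentile, trend and robust moderation, the replicate block, the mean of a gene's probe sets or without any 1 array, or without KCl replicate 1 with a further quantile normalization. The default array weights did not converge. Gene-by-gene weights, chosen after seeing the data, gave KCl replicate 3 a weight of 6.76 and the other KCl arrays 0.158 and 0.288. Under them 12 of 48 genes had an adjusted p under 0.05, against 6.72% of all probe sets, and 23 an unadjusted p under 0.05, against 23.9% of all probe sets and 31.4% of the brightest 10% of genes. With the replicate block that last count was 12, against 6.64% of all probe sets and 11.8% of the brightest 10% of genes. Whether the numbers pair the samples is not given in the labels. Deviations of same-numbered arrays correlated at 0.301, 0.626 and 0.0852, and not every array correlated best with its own number. Those deviations are from means of 3 arrays, KCl replicate 1 among them, so they cannot settle whether the samples are paired. Without 1 array the count ran from 1 to 26, and that of genes with groups apart from 10 to 36. The regulatory median ran from -0.0056 to 0.46 without 1 array, and it was -0.0045 without KCl replicate 1 and with a further quantile normalization. Signs turned for 10 genes after a further quantile normalization and for 12 without KCl replicate 1. Signal over background was not assessed.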
